A study of Homo sapiens with 12 samples.

Results

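The genes described here build, inspect and discard proteins in the endoplasmic reticulum (ER): 47 genes in 4 classes, namely 16 chaperones and co-chaperones, 12 oxidoreductases and prolyl isomerases, 12 genes of ER-associated degradation (ERAD), and 7 genes for the stress sensors, the proteases that process them and the transcription factor XBP1. They were chosen by name and role, with earlier results of these data known, so the set was not picked blind. Every probe set annotated to exactly 1 gene symbol was read for each of them. Such a probe set existed for 44 of the 47 genes (105 probe sets, of 41091 for 19775 genes on the array). PDIA5, TXNDC5 and SYVN1 lie only on probe sets that carry several symbols and were not read. ATF6B, a sensor related to ATF6, stayed between 2.80 and 3.85 on the log2 scale on its brightest probe set, at the floor of these values, and was not tested, so that 43 genes and 94 probe sets entered the tests.

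The study exposed HK-2 cells, an immortalised line derived from human kidney proximal tubule epithelium, to a low dose of Ota or to the control vehicle and measured their RNA on expression arrays. The 4 groups of 3 arrays each are Ota at 72 h, control at 72 h, Ota at 24 h and control at 24 h. All 4 groups are the same cell line in the same hormonally supplemented, insulin-containing medium with epidermal growth factor, treated when close to confluent. The labels write neither a concentration nor a full name for Ota. OTA is the customary short form of ochratoxin A, a nephrotoxic mycotoxin, which the labels do not name. They call the arrays biological replicates without saying which cultures they came from, so a p-value here measures the spread between these samples. A single immortalised line also limits the groups as a model of kidney: of 12 markers of proximal tubule epithelium, 5 (KRT8, KRT18, CDH1, CDH2 and PAX8) lay above the filter, and the brush border and transport genes GGT1, ANPEP, AQP1, LRP2, CUBN, SLC22A6 and SLC34A1 lay at the floor in every group. Of the markers of other cell types, 1 of 3 for podocyte (PODXL), 1 of 3 for fibroblast (COL1A1) and none of 4 for distal nephron, 3 for endothelium and 3 for leukocyte were above it.

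Proteins that enter the ER are folded by Hsp70 and Hsp90 family chaperones and by lectin chaperones that hold on to their sugar chains, while protein disulfide isomerases, recharged by ERO1 oxidases, form their disulfide bonds. Proteins that fail to fold are trimmed, recognised and pulled back to the cytosol for degradation. When unfolded protein accumulates, the sensors ERN1 (IRE1), EIF2AK3 (PERK) and ATF6 start the unfolded protein response: IRE1 splices the XBP1 messenger RNA, ATF6 is cut free by the proteases MBTPS1 and MBTPS2, and the resulting factors raise transcription of many of the genes described here. Kidney tubule cells make many membrane transporters and receptors that pass through this pathway.

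The unfolded protein response acts in part through short promoter elements. The promoters below belong to members that hold such an element, and whether the element bears on the changes described here was not tested. Promoters of 43 members were found in a RefSeq table of GRCh38.p14, covering 250 bases before to 50 bases after each gene's start; PDIA3, FKBP14, DERL1 and DERL3 had no entry. Both strands were searched for the ER stress element ERSE (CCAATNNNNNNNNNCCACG), for ERSE-II (ATTGGNCCACG) and for an XBP1 site (TGACGTGG). ERSE was present in 7 of the 43 members (HSPA5, HSP90B1, CALR, CANX, CRELD2, ERO1B and XBP1), against 27 of 35116 promoters of the same length in the table (0.0769%). ERSE-II was present in 3 members (HYOU1, SDF2L1 and HERPUD1), against 19 of 35116 promoters (0.0541%). ERSE is known as the stress element of ER chaperone genes, and ERSE-II as its second form. A higher share among members thus follows from the choice of motif and genes and is not a separate result. The XBP1 site was present in 3 (HYOU1, DNAJC10 and TXNDC11), against 256 of 35116 (0.729%), and that of HYOU1 overlaps its upstream ERSE-II. The 250 bases before the start of 8 of the 10 members with ERSE or ERSE-II follow, taken in the order of their p-value at 72 h, each 5′ to 3′ in the direction of the gene. Capitals mark the fixed letters of the element on either strand, so CCAAT and CCACG read as ATTGG and CGTGG where the element lies on the opposite strand.
HYOU1: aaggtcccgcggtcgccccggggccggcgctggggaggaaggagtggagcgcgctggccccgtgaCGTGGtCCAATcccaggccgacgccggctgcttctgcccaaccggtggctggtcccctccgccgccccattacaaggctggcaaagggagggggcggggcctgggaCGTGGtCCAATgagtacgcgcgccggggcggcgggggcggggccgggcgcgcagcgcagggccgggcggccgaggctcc
HSP90B1: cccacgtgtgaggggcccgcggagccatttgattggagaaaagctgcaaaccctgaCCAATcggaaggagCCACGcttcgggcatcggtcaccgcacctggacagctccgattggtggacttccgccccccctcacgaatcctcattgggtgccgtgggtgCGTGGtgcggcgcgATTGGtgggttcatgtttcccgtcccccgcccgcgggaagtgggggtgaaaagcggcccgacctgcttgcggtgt
CRELD2: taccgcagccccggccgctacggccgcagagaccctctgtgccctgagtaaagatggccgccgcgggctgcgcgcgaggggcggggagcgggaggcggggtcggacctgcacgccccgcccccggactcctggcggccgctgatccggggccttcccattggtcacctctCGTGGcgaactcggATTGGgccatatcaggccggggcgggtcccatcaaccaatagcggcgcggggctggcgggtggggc
CALR: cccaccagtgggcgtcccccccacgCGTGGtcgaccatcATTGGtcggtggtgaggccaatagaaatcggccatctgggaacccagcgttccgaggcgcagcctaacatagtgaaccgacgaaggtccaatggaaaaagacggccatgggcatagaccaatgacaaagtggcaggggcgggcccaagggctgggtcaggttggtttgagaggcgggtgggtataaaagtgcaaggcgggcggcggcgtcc
SDF2L1: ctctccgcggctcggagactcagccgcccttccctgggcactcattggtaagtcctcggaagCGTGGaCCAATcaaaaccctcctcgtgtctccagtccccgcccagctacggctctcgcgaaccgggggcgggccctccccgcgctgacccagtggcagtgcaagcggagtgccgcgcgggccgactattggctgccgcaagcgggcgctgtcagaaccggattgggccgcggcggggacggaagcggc
ERO1B: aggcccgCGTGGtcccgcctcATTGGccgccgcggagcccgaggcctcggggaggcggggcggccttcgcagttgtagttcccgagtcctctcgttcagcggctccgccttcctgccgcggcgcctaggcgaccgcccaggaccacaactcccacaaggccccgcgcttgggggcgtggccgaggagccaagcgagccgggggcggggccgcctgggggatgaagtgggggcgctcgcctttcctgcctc
XBP1: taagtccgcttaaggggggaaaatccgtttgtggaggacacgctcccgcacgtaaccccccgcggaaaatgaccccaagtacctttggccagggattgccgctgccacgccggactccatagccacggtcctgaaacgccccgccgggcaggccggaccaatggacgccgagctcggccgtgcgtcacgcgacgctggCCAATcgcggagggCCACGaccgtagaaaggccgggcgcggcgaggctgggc
CANX: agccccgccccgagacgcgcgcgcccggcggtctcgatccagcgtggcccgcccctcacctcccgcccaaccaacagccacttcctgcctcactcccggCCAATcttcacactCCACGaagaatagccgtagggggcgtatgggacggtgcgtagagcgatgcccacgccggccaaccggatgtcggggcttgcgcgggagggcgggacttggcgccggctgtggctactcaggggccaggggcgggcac
These stretches lie at chr11:119057206-119057455 (minus strand) for HYOU1, chr12:103930160-103930409 (plus strand) for HSP90B1, chr22:49918384-49918633 (plus strand) for CRELD2 and chr19:12938359-12938608 (plus strand) for CALR. Those of the other genes are chr22:21642052-21642301 (plus strand) for SDF2L1, chr1:236281959-236282208 (minus strand) for ERO1B, chr22:28800570-28800819 (minus strand) for XBP1 and chr5:179698679-179698928 (plus strand) for CANX, all in GRCh38.p14. HYOU1 carries ERSE-II at 2 places and HSP90B1 carries ERSE at 2 places, once on each strand. A match of letters is a description of the window and not evidence that a factor binds there.

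Values are log2 levels made by the authors with GCRMA, which corrects probe brightness for background and puts the arrays on a common scale. Arrays have no read depth, and the 3 arrays per group limit the precision. The upper quartile over all probe sets lay between 6.89 and 7.11 on the 12 arrays, and the highest correlation between arrays was 0.993, so that no array repeated another. A probe set was tested where it exceeded 4 on at least 3 of the 12 arrays, which 22477 probe sets of 10699 genes did. All tests used limma across these probe sets with Benjamini-Hochberg adjustment, a gene is read on its probe set with the highest mean unless another is named, and "called" means an adjusted p under 0.05. No member passed the filter through a single group, and 41 of the 43 exceeded 4 on every array.

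At 72 h the folding machinery stood lower in Ota cells than in control cells, at both the chaperone and the enzyme level. Of 43 members tested, 33 were called lower and none higher, with a median log2 difference of -0.80. Over all 10699 genes tested, 13.7% were called lower and 15.7% higher, and the median was 0.01. On 35 of the 43 members all 3 Ota arrays lay below all 3 control arrays, which 25.3% of all genes tested also did. On the other 8 members the groups overlapped. In RNA from whole cultures, fewer cells that make a transcript and less of it per cell cannot be told apart.

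The classes differed in how completely they moved, although no test compared them with each other. All 16 chaperones and co-chaperones were lower (median -0.98), as were 9 of the 10 oxidoreductases and prolyl isomerases tested (median -1.12), TXNDC11 being the exception. Of the 11 ERAD genes tested, 7 were lower (median -0.57) and EDEM1, EDEM3, DERL1 and SELENOS were not called. Among the 6 sensor genes tested, XBP1 alone was lower and the median was -0.21. With the probe sets of each gene averaged, 15 of the 16 chaperones and 8 of the 11 ERAD genes were called lower. HSPA5 was the chaperone not called (0.06).

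**Figure D1:**
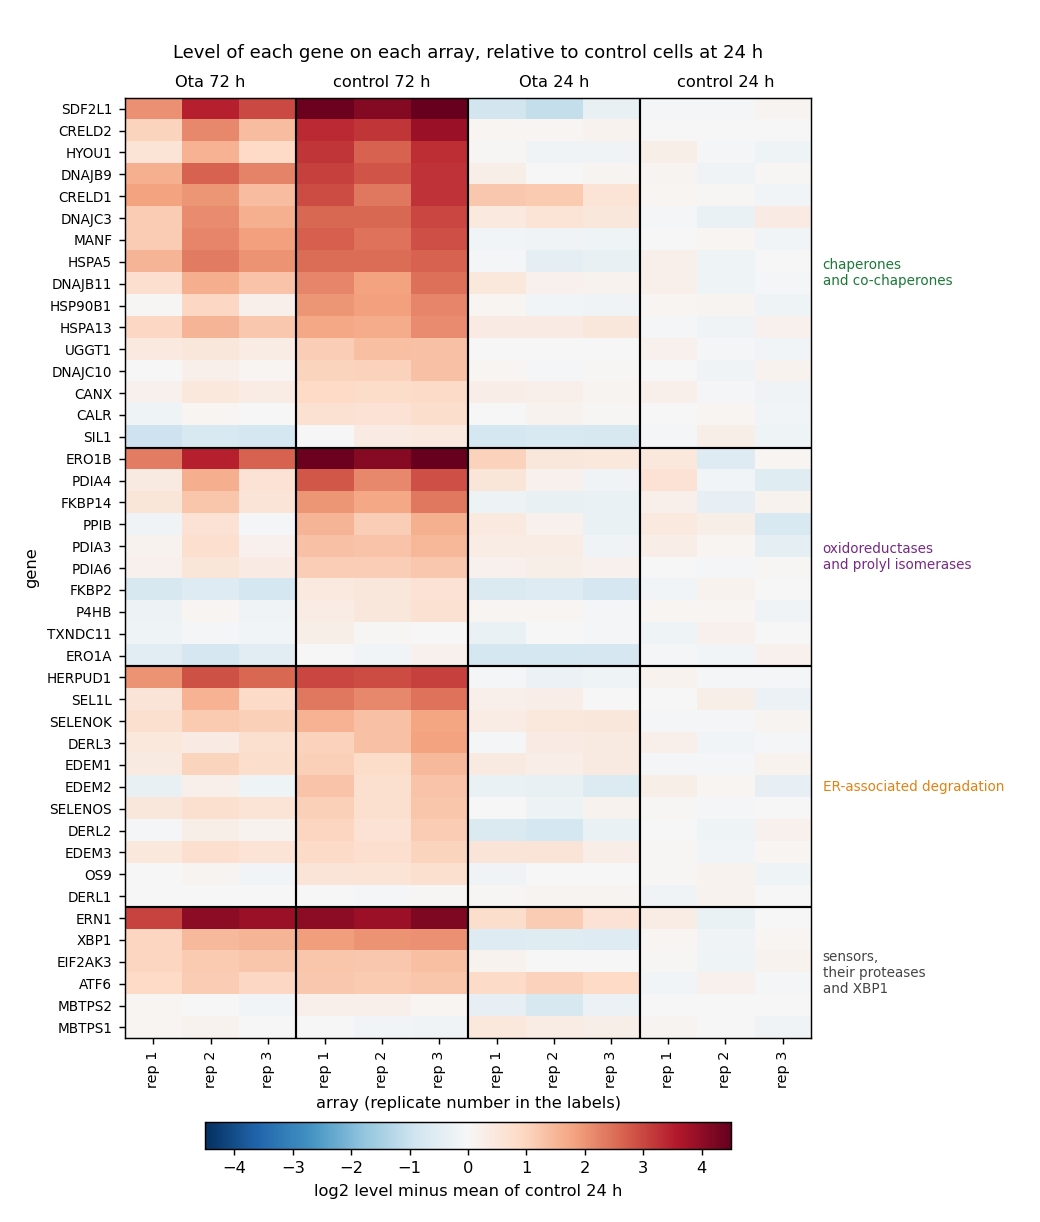
Log2 level of each of the 43 tested members (rows, grouped by class) on each of the 12 arrays (columns), given as the difference from that gene's mean in control cells at 24 h. Most rows are darkest red in control cells at 72 h, paler in Ota cells at 72 h and close to white at 24 h, with ATF6 and CRELD1 already above the control level in Ota cells at 24 h.

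**Figure D2:**
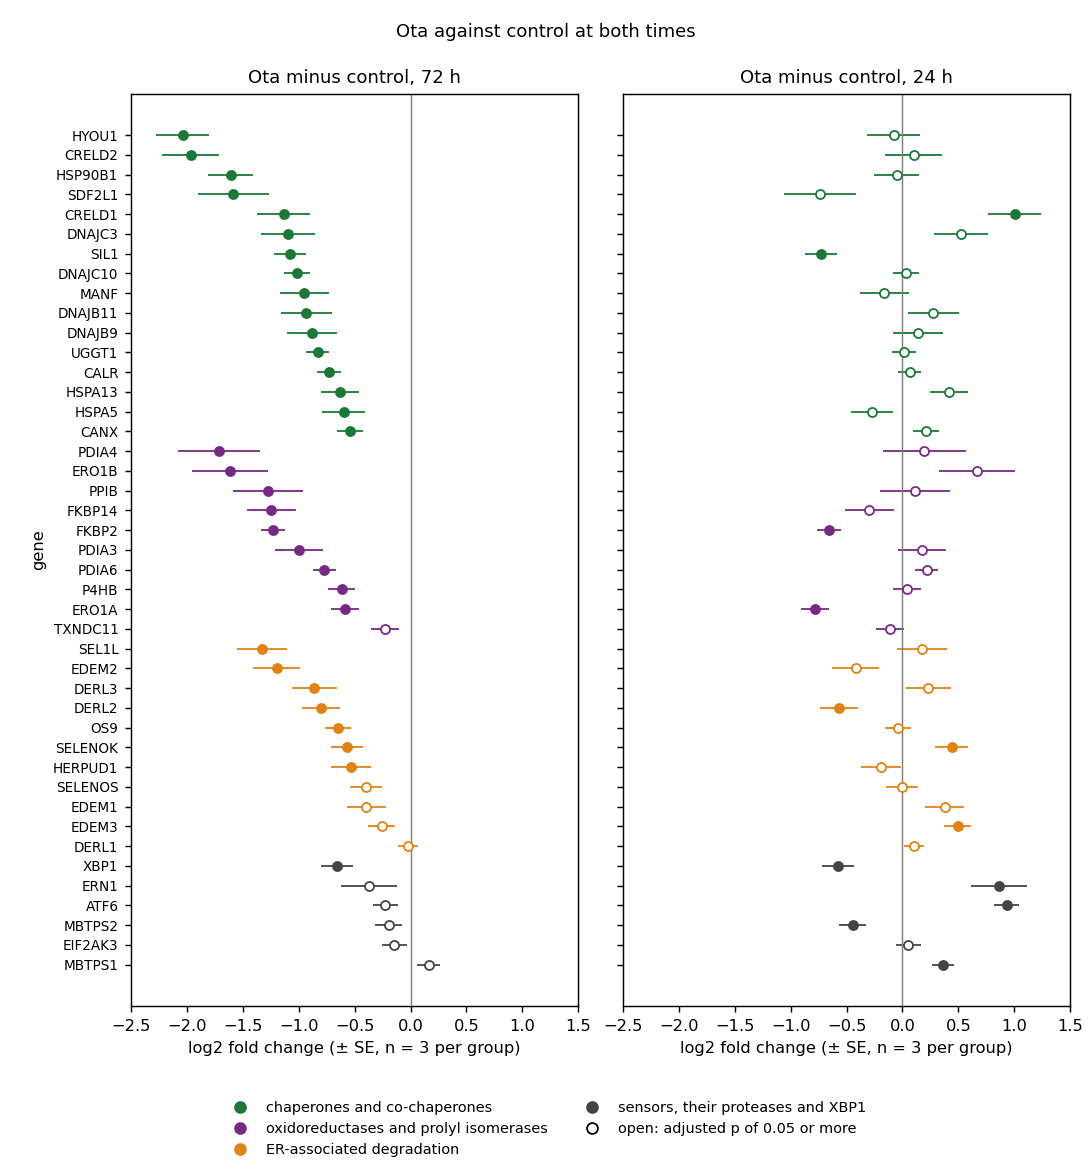
Log2 fold change, Ota minus control, of each member at 72 h (left) and 24 h (right), with its standard error from limma and 3 arrays per group. Filled points have an adjusted p under 0.05: at 72 h these are 33 points, all left of zero, and at 24 h 6 points on either side.

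Among the chaperones the largest drop belonged to HYOU1, an Hsp70-like protein that exchanges the nucleotide of BiP. HYOU1 read 9.42, 10.36 and 9.70 in Ota cells at 72 h, against 12.03, 11.45 and 12.10 in control cells at 72 h. At 24 h it read 8.86, 8.65 and 8.65 in Ota cells and 9.04, 8.73 and 8.62 in control cells. The groups were well apart at 72 h, where Ota cells held 0.243 of the control level (log2 -2.04 ± 0.24 SE, limma adjusted p = 0.000146), and overlapped at 24 h (log2 -0.08 ± 0.24 SE, adjusted p = 0.85).

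CRELD2, an ER-resident protein with epidermal-growth-factor-like domains that is known as a stress-induced gene, behaved alike. It read 10.19, 11.38 and 10.59 in Ota cells at 72 h, against 12.56, 12.43 and 13.09 in control cells. At 24 h all 6 arrays lay between 9.20 and 9.35. Its difference was -1.97 ± 0.25 (SE) at 72 h with a limma adjusted p of 0.000274, and 0.10 ± 0.25 at 24 h with an adjusted p of 0.816.

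HSP90B1 (GRP94), the Hsp90 of the ER, read 11.60, 12.48 and 11.76 in Ota cells at 72 h, against 13.51, 13.40 and 13.75 in control cells at 72 h. The arrays did not overlap, and Ota cells held 0.328 of the control level (log2 -1.61 ± 0.20 SE, limma adjusted p = 0.00024). At 24 h it read 11.65, 11.43 and 11.39 in Ota cells and 11.63, 11.65 and 11.35 in control cells, which overlap. HSP90B1 is read on a probe set of the x_at kind, whose probes can match related transcripts, as are CALR and OS9.

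HSPA5 (BiP), the Hsp70 of the ER and the protein whose release activates the sensors, moved less. Its levels were 14.08, 14.91 and 14.57 in Ota cells at 72 h, against 15.07, 15.06 and 15.22 in control cells at 72 h, so the groups did not overlap. The difference of -0.60 ± 0.19 (SE) had a limma adjusted p of 0.0358. That call was lost without replicate 1 of Ota at 72 h (-0.38, adjusted p = 0.125), without replicate 3 of that group (-0.62, 0.0709), and without replicate 1, 2 or 3 of control at 72 h (-0.62, -0.63 and -0.55, with adjusted p = 0.0736, 0.0668 and 0.109). The control values lie at or above the 99.9th percentile of their arrays, whose maxima were 15.65 to 15.84, near the top of the scale. At 24 h HSPA5 read 12.46, 12.16 and 12.24 in Ota cells and 12.77, 12.35 and 12.55 in control cells, with overlap (log2 -0.27 ± 0.19 SE, adjusted p = 0.323).

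DNAJB9 (ERdj4) and DNAJC10 (ERdj5) are J-domain partners of BiP, DNAJC10 being also a reductase of disulfide bonds. DNAJC10 read 11.58, 11.78 and 11.62 in Ota cells at 72 h, against 12.57, 12.59 and 12.87 in control cells, a difference of -1.01 ± 0.12 (SE, limma adjusted p = 0.000128). DNAJB9 read 10.83, 11.90 and 11.49 in Ota cells at 72 h, against 12.31, 12.08 and 12.49 in control cells, a difference of -0.88 ± 0.22 (SE, limma adjusted p = 0.0129). Both genes had all Ota arrays below all control arrays. The call of DNAJB9 was lost without replicate 3 of control at 72 h (-0.78, adjusted p = 0.0539). At 24 h DNAJC10 averaged 11.58 ± 0.069 in Ota cells and 11.55 ± 0.16 in control cells, and DNAJB9 9.39 ± 0.12 in Ota cells and 9.25 ± 0.15 in control cells (SD, n = 3 each), neither called.

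UGGT1 re-glucosylates glycoproteins that are not yet folded, which sends them back to the lectin chaperones. It read 9.64, 9.70 and 9.54 in Ota cells at 72 h, against 10.32, 10.53 and 10.52 in control cells at 72 h, with a difference of -0.83 ± 0.10 (SE, limma adjusted p = 0.000222). At 24 h it averaged 9.21 ± 0.015 in Ota cells and 9.19 ± 0.16 in control cells (SD, n = 3 each), a difference of 0.01 that was not called.

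SIL1 and CRELD1 were the chaperone-class genes already called at 24 h, in opposite directions. SIL1, another nucleotide exchange factor of BiP, read 6.82, 6.91 and 6.85 in Ota cells at 24 h, against 7.51, 7.87 and 7.39 in control cells at 24 h, without overlap (-0.73 ± 0.14 SE, limma adjusted p = 0.00268). At 72 h it read 6.68, 6.91 and 6.79 in Ota cells and 7.60, 7.96 and 8.04 in control cells, again without overlap (-1.08 ± 0.14 SE, adjusted p = 0.000339). CRELD1, a membrane protein related to CRELD2, turned round: 5.06, 5.00 and 4.47 in Ota cells at 24 h against 3.94, 3.88 and 3.70 in control cells (1.00 ± 0.24 SE, adjusted p = 0.00746), and 5.64, 5.84 and 5.22 in Ota cells at 72 h against 6.78, 6.23 and 7.09 in control cells (-1.14 ± 0.24 SE, adjusted p = 0.0045). CRELD1 lies low on the scale, and its control arrays at 24 h are just under the level of the filter.

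The remaining chaperones all followed the drop at 72 h. SDF2L1, a partner of the J-domain proteins, averaged 9.02 ± 0.74 in Ota cells at 72 h, against 10.61 ± 0.31 in control cells (SD, n = 3 each; -1.58 ± 0.32 SE, limma adjusted p = 0.00383). DNAJC3 (p58IPK) and DNAJB11 (ERdj3), J-domain proteins of the lumen, differed by -1.10 and -0.93. MANF, a small BiP-binding protein, differed by -0.95, and HSPA13, an Hsp70 relative, by -0.63. The lectin chaperones calreticulin (CALR) and calnexin (CANX) differed by -0.73 and -0.54. HSPA13 lost its call without replicate 1 of Ota at 72 h (-0.48, adjusted p = 0.0739) or without replicate 3 of control at 72 h (-0.49, adjusted p = 0.0723). At 24 h none of these 7 was called, with differences between -0.74 (SDF2L1) and 0.52 (DNAJC3).

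**Figure D3:**
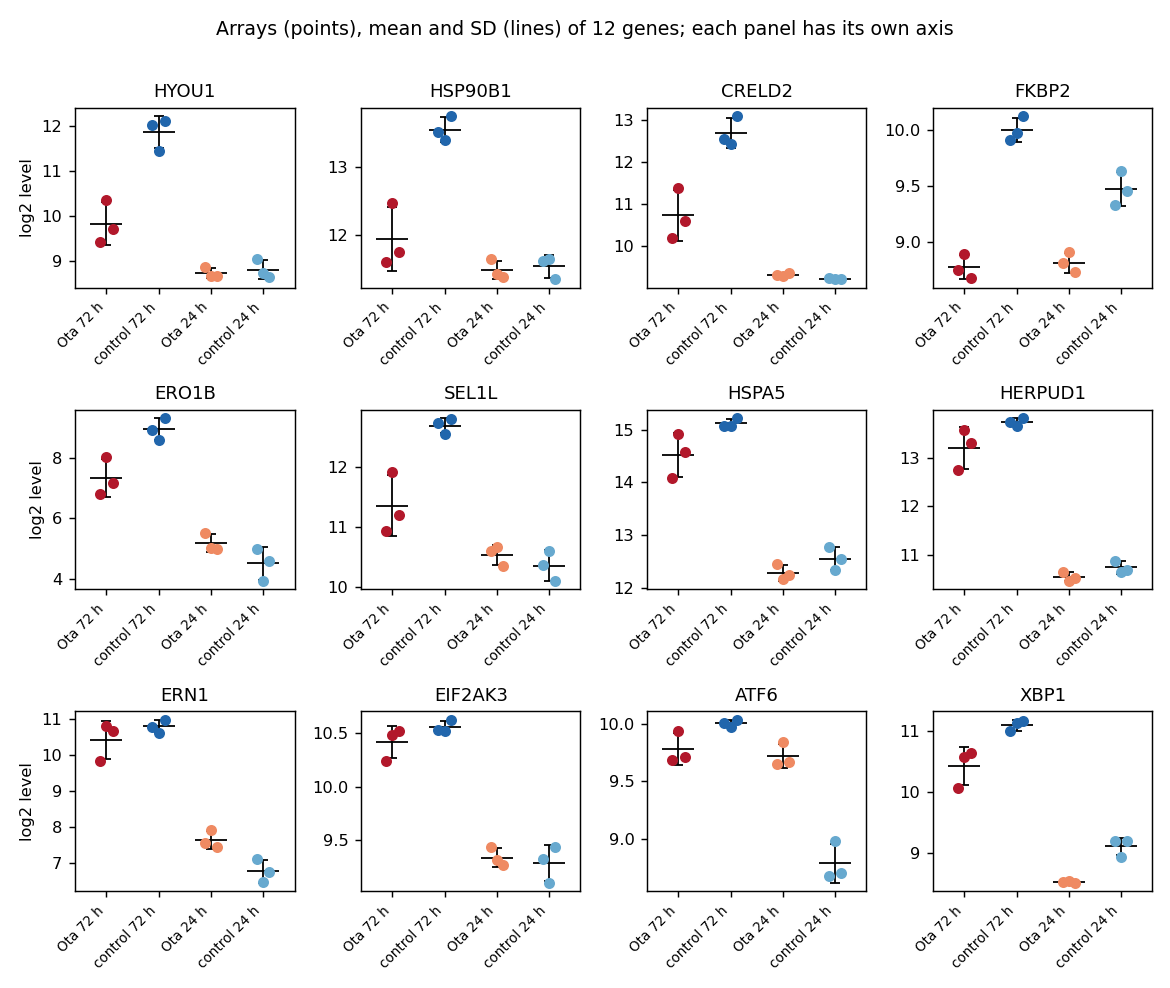
Log2 level on each array (points), with the mean and SD (lines, n = 3), for 12 genes in Ota cells at 72 h, control cells at 72 h, Ota cells at 24 h and control cells at 24 h, each panel on an axis of its own that does not start at zero. HYOU1, HSP90B1, CRELD2, FKBP2, ERO1B and SEL1L show Ota points clear of the control points at 72 h, whereas ERN1 and EIF2AK3 show points that overlap or nearly touch.

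Oxidoreductases and prolyl isomerases lay lower at 72 h as well. FKBP2, a prolyl isomerase, had the smallest p of all members: it read 8.75, 8.89 and 8.68 in Ota cells at 72 h, against 9.91, 9.97 and 10.13 in control cells (-1.23 ± 0.11 SE, limma adjusted p = 2.52e-05). It was lower at 24 h as well, with 8.81, 8.91 and 8.73 in Ota cells, against 9.34, 9.63 and 9.46 in control cells (-0.66 ± 0.11 SE, adjusted p = 0.000786). The arrays did not overlap at either time. FKBP14, a prolyl isomerase active on collagen, read 8.41, 9.11 and 8.45 in Ota cells at 72 h, against 9.86, 9.61 and 10.23 in control cells, without overlap (-1.24 ± 0.22 SE, adjusted p = 0.00189). At 24 h its arrays overlapped, with means of 7.57 ± 0.066 in Ota cells and 7.86 ± 0.33 in control cells (SD, n = 3 each).

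P4HB (PDI) and PDIA6 make and rearrange disulfide bonds. P4HB read 11.93, 12.25 and 12.01 in Ota cells at 72 h, against 12.51, 12.67 and 12.86 in control cells (-0.62 ± 0.12 SE, limma adjusted p = 0.00357). PDIA6 read 12.60, 12.96 and 12.77 in Ota cells at 72 h, against 13.51, 13.50 and 13.63 in control cells (-0.77 ± 0.10 SE, adjusted p = 0.00029). Neither overlapped at 72 h and neither was called at 24 h, where P4HB averaged 12.20 ± 0.071 in Ota cells and 12.16 ± 0.14 in control cells and PDIA6 12.62 ± 0.053 in Ota cells and 12.40 ± 0.053 in control cells (SD, n = 3 each). PDIA4, of the same family, differed by -1.71 ± 0.37 (SE, adjusted p = 0.00567) at 72 h, and PDIA3 in Ota cells held 0.499 of its control level (adjusted p = 0.00543). PPIB (cyclophilin B) differed by -1.27 ± 0.32 (SE, adjusted p = 0.0115). PDIA4 and PPIB varied widely between arrays, with SD of 0.66 for PDIA4 in Ota cells at 72 h and 0.60 for PPIB in control cells at 24 h. TXNDC11, a thioredoxin-domain protein of the membrane, was not called (-0.23 ± 0.12 SE, adjusted p = 0.2).

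The paired oxidases that recharge PDI were both lower at 72 h, and ERO1A on its brightest probe set at 24 h as well. ERO1B read 6.81, 8.01 and 7.16 in Ota cells at 72 h, against 8.92, 8.59 and 9.32 in control cells (-1.62 ± 0.34 SE, limma adjusted p = 0.0048), and 5.52, 5.02 and 4.97 in Ota cells at 24 h, against 4.99, 3.91 and 4.59 in control cells (0.67 ± 0.34 SE, adjusted p = 0.167). It was thus apart at 72 h and overlapping at 24 h. ERO1A, also known as a target of hypoxia signalling, read as follows: 9.74, 9.50 and 9.79 in Ota cells at 72 h against 10.21, 10.13 and 10.44 in control cells (-0.58 ± 0.12 SE, adjusted p = 0.00481), and 9.45, 9.45 and 9.49 in Ota cells at 24 h against 10.16, 10.12 and 10.46 in control cells (-0.78 ± 0.12 SE, adjusted p = 0.000621). Its arrays did not overlap at either time on this probe set, but another ERO1A probe set was called higher at 24 h. With its probe sets averaged, ERO1A gave -0.34 at 24 h and -0.30 at 72 h, both still called.

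In the ERAD class, recognition and channel genes moved unevenly. SEL1L, the partner that stabilises the ubiquitin ligase of the channel, read 10.93, 11.92 and 11.21 in Ota cells at 72 h, against 12.72, 12.54 and 12.79 in control cells (-1.33 ± 0.22 SE, limma adjusted p = 0.00136). At 24 h SEL1L read 10.60, 10.67 and 10.35 in Ota cells and 10.37, 10.61 and 10.10 in control cells, with overlap (0.18 ± 0.22 SE, adjusted p = 0.604). EDEM2, which starts the mannose trimming that marks a glycoprotein for disposal, read 7.00, 7.56 and 7.16 in Ota cells at 72 h, against 8.63, 8.07 and 8.62 in control cells (-1.20 ± 0.21 SE, adjusted p = 0.00169). OS9, a lectin that reads the trimmed chain, read 9.60, 9.74 and 9.50 in Ota cells at 72 h, against 10.19, 10.25 and 10.36 in control cells (-0.65 ± 0.11 SE, adjusted p = 0.00177). These 3 genes had Ota arrays entirely below control arrays at 72 h, and none of them was called at 24 h.

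The derlins, membrane proteins of the export channel, split. DERL2 read 10.03, 10.39 and 10.28 in Ota cells at 72 h, against 11.07, 10.77 and 11.25 in control cells (-0.80 ± 0.17 SE, limma adjusted p = 0.00492). DERL3 read 4.89, 4.79 and 5.12 in Ota cells at 72 h, against 5.45, 5.72 and 6.22 in control cells (-0.86 ± 0.20 SE, adjusted p = 0.00849), at levels near the filter. DERL1 read 10.47, 10.52 and 10.48 in Ota cells at 72 h, against 10.53, 10.45 and 10.56 in control cells, which overlap (-0.02 ± 0.09 SE, adjusted p = 0.878). At 24 h DERL2 was called lower (9.47, 9.33 and 9.82 in Ota cells, against 10.09, 9.93 and 10.31 in control cells, -0.57 ± 0.17 SE, adjusted p = 0.0248). This 24 h call was lost without replicate 1 or 2 of Ota at 24 h (adjusted p = 0.0735 and 0.0962) or replicate 1 or 3 of control at 24 h (adjusted p = 0.0572 and 0.0828), and another DERL2 probe set moved the other way.

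EDEM1 and EDEM3, mannosidase-like relatives of EDEM2, were not called at 72 h. EDEM3 read 9.31, 9.58 and 9.43 in Ota cells at 72 h, against 9.69, 9.58 and 9.83 in control cells (-0.26 ± 0.12 SE, limma adjusted p = 0.125). It was higher at 24 h, with 9.40, 9.43 and 9.15 in Ota cells, against 8.89, 8.70 and 8.91 in control cells (0.49 ± 0.12 SE, adjusted p = 0.00794), and without overlap. EDEM1 differed by -0.39 ± 0.18 (SE, adjusted p = 0.122) at 72 h. The membrane selenoproteins gave -0.39 ± 0.14 (SE, adjusted p = 0.0613) for SELENOS and -0.57 ± 0.14 (SE, adjusted p = 0.0132) for SELENOK at 72 h, the second called lower. That SELENOK call was lost without replicate 1 of Ota at 72 h (-0.44, adjusted p = 0.0569) or replicate 3 of control at 72 h (-0.45, adjusted p = 0.0577). At 24 h SELENOK was called higher (0.44 ± 0.14 SE, adjusted p = 0.0391), a call lost on leaving out any of 7 arrays, with an adjusted p of up to 0.110.

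HERPUD1, a stress-induced membrane scaffold of the ERAD ligase, was barely past the threshold. It read 12.74, 13.59 and 13.30 in Ota cells at 72 h, against 13.75, 13.65 and 13.83 in control cells (-0.53 ± 0.18 SE, limma adjusted p = 0.0437). The arrays did not overlap. The call was kept only without replicate 2 of Ota at 72 h: leaving out any of the other 11 arrays raised the adjusted p, to between 0.0502 and 0.126, with the smallest difference (-0.30) without replicate 1 of Ota at 72 h. At 24 h HERPUD1 read 10.64, 10.46 and 10.53 in Ota cells and 10.88, 10.64 and 10.69 in control cells (-0.19 ± 0.18 SE, adjusted p = 0.463).

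More of the sensor-class genes were called at 24 h than at 72 h. By the test of the difference between the times, 2 of the 6 were called lower (ATF6 and ERN1), beside 4.91% of all genes tested. That call of ERN1 was lost in 9 of 21 settings. At 24 h, 3 of the 6 tested genes of this class were higher in Ota cells (ATF6, ERN1 and MBTPS1) and 2 were lower (XBP1 and MBTPS2). Over all genes tested, 8.94% were called higher and 20.9% lower at 24 h. Of these sensor-class calls at 24 h, only that of ATF6 held in every setting run. ATF6, the membrane-tethered transcription factor, read 9.65, 9.84 and 9.67 in Ota cells at 24 h, against 8.67, 8.98 and 8.70 in control cells, 1.91 times the control level (0.93 ± 0.11 SE, limma adjusted p = 9.54e-05). At 72 h it read 9.68, 9.94 and 9.71 in Ota cells and 10.01, 9.97 and 10.03 in control cells (-0.23 ± 0.11 SE, adjusted p = 0.156), where Ota arrays were lower by a margin that was not called. ATF6 averaged 9.72 ± 0.1 in Ota cells at 24 h, beside 10.00 ± 0.032 in control cells at 72 h (SD, n = 3 each).

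ERN1 (IRE1), the kinase and ribonuclease that splices XBP1, read 7.57, 7.92 and 7.44 in Ota cells at 24 h, against 7.10, 6.47 and 6.76 in control cells (0.87 ± 0.25 SE, limma adjusted p = 0.0219). That call was lost without replicate 2 of Ota at 24 h (0.73, adjusted p = 0.0852), or without replicate 2 (0.71, adjusted p = 0.0801) or 3 (0.86, adjusted p = 0.0514) of control at 24 h. With its probe sets averaged, of which the other 2 lay below the filter on low values, ERN1 gave 0.27 at 24 h (adjusted p = 0.25) and an interaction of -0.53 (adjusted p = 0.136), neither called. At 72 h ERN1 read 9.82, 10.80 and 10.66 in Ota cells and 10.79, 10.62 and 10.98 in control cells, with overlap (-0.37 ± 0.25 SE, adjusted p = 0.308). EIF2AK3 (PERK), the kinase that slows translation, overlapped at both times: 10.25, 10.48 and 10.52 in Ota cells at 72 h, against 10.53, 10.52 and 10.63 in control cells (-0.14 ± 0.11 SE, adjusted p = 0.379), and 9.44, 9.31 and 9.27 in Ota cells at 24 h, against 9.33, 9.10 and 9.44 in control cells (0.05 ± 0.11 SE, adjusted p = 0.782).

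XBP1, the transcription factor below ERN1, was the gene of this class that was called lower at both times on its brightest probe set. It read 10.07, 10.58 and 10.64 in Ota cells at 72 h, against 10.99, 11.12 and 11.16 in control cells (-0.66 ± 0.14 SE, limma adjusted p = 0.00561). At 24 h it read 8.54, 8.55 and 8.52 in Ota cells, against 9.20, 8.95 and 9.20 in control cells (-0.57 ± 0.14 SE, adjusted p = 0.0101). The arrays did not overlap at either time. Averaged with its dimmer probe set, which read 4.01 to 5.74, XBP1 gave -0.36 at 24 h and was not called (adjusted p = 0.111). A probe set of this kind measures XBP1 RNA as a whole, and spliced and unspliced forms were not told apart here.

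The proteases that cut ATF6 went opposite ways at 24 h. MBTPS1 (site-1 protease) read 10.13, 10.00 and 9.94 in Ota cells at 24 h, against 9.80, 9.68 and 9.51 in control cells (0.36 ± 0.10 SE, limma adjusted p = 0.0191). MBTPS2 (site-2 protease) read 10.62, 10.26 and 10.73 in Ota cells at 24 h, against 11.01, 10.97 and 10.96 in control cells (-0.45 ± 0.12 SE, adjusted p = 0.0166). Neither group pair overlapped, but both calls are near the threshold: MBTPS1 was not called without replicate 1 of Ota (0.31, adjusted p = 0.0742) or replicate 3 of control at 24 h (0.29, adjusted p = 0.0622), nor MBTPS2 without replicate 2 of Ota (-0.31, adjusted p = 0.0541) or replicate 1 of control at 24 h (-0.43, adjusted p = 0.0507). At 72 h MBTPS1 read 9.76, 9.81 and 9.63 in Ota cells and 9.66, 9.54 and 9.50 in control cells (0.16 ± 0.10 SE, adjusted p = 0.266), and MBTPS2 11.08, 11.00 and 10.84 in Ota cells and 11.21, 11.22 and 11.08 in control cells (-0.20 ± 0.12 SE, adjusted p = 0.266).

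Over the whole set at 24 h, 6 of 43 members were called lower, 6 higher and 31 not called, with a median difference of 0.06. Among all genes tested 20.9% were called lower and 8.94% higher, with a median of -0.06. All Ota arrays lay below all control arrays on 8 members and above them on 11, and 24 members overlapped. The matching share of all genes tested was not computed at 24 h, so these counts are a description without a baseline. By class the calls at 24 h were 1 lower (SIL1) and 1 higher (CRELD1) of 16 chaperones, 2 lower (ERO1A and FKBP2) of 10 oxidoreductases and isomerases, 1 lower (DERL2) and 2 higher (EDEM3 and SELENOK) of 11 ERAD genes, and the 5 sensor-class genes above.

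The response to Ota at 72 h minus that at 24 h was tested as an interaction over all 12 arrays. It was lower for 25 of 43 members and higher for none, with a median of -0.84, while 4.91% of all genes tested were called lower, 13.7% higher, and the median was 0.09. The 25 comprise 12 of 16 chaperones, 6 of 10 oxidoreductases and isomerases, 5 of 11 ERAD genes and 2 of 6 sensor-class genes. ERO1B had the largest interaction (-2.29 ± 0.48 SE, limma adjusted p = 0.0102), followed by CRELD1 (-2.14 ± 0.33 SE, adjusted p = 0.00254), CRELD2 (-2.07 ± 0.36 SE, adjusted p = 0.00421) and HYOU1 (-1.96 ± 0.34 SE, adjusted p = 0.004). For ATF6 it was -1.16 ± 0.16 (SE, adjusted p = 0.0012), its difference being positive at 24 h and uncalled at 72 h. SIL1, ERO1A, DERL2 and XBP1, called lower at both times on their brightest probe sets, gave -0.34, 0.20, -0.23 and -0.09, none called. Without replicate 1 of Ota at 72 h the interaction was called lower for 16 members, and 16 of the 25 calls held in all the settings tried.

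Levels over time show where these differences lie, with the caution that these comparisons reuse the same arrays. In control cells 37 of 43 members were higher at 72 h than at 24 h and none lower (median change 1.37), against 21.5% of all genes called higher and 22.6% called lower (median -0.00). All 3 control arrays at 72 h lay above all 3 at 24 h for 38 members, as they did for 27.1% of all genes tested. In Ota cells 22 of 43 members were higher at 72 h than at 24 h and none lower (median change 0.46), against 20.4% of all genes called higher and 8.86% called lower (median 0.08). For 32 of the 43 members the Ota mean at 72 h lay between the control means at 24 h and at 72 h. How many of all genes tested do the same was not counted, so this is not shown to be particular to the members.

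Read on the brightest probe sets, the change in control cells over time was steepest for ERO1B (4.44), SDF2L1 (4.43) and ERN1 (4.02), and reached 3.48 for CRELD2, 3.06 for HYOU1, 3.05 for DNAJB9, 3.01 for HERPUD1 and 2.56 for HSPA5, in log2 units. In Ota cells the corresponding changes were 2.16 for ERO1B, 3.59 for SDF2L1, 2.78 for ERN1, 1.41 for CRELD2, 1.10 for HYOU1, 2.02 for DNAJB9, 2.67 for HERPUD1 and 2.23 for HSPA5. HSP90B1 changed by 0.46 ± 0.20 (SE, limma adjusted p = 0.117) in Ota cells and by 2.01 ± 0.20 (SE, adjusted p = 2.73e-05) in control cells. Over the 37 members that were higher with time in control cells, the log2 change in Ota cells was a median 35.1% of that in control cells, from -26.6% to 95.6%. These members were picked by the same change in control cells that forms the divisor, which can by itself lower the percentage. The percentage was not computed for other genes, so it is not shown to be particular to the members. By class the median percentage was 40.5% for 15 chaperones, 13.9% for 8 oxidoreductases and isomerases, 33.1% for 10 ERAD genes and 77.0% for 4 sensor-class genes. EIF2AK3 (1.08 in Ota cells, 1.27 in control cells) and XBP1 (1.89 in Ota cells, 1.98 in control cells) thus changed by closer amounts, whereas ATF6 changed by 0.06 in Ota cells and 1.22 in control cells. These sizes depend on the probe set: 230031_at of HSPA5 changed by 3.18 in Ota cells and 5.56 in control cells. With the probe sets of a gene averaged, floor values included, the changes in Ota and in control cells were 1.02 and 1.55 for ERN1, 1.23 and 1.64 for HERPUD1, 0.60 and 0.82 for XBP1, and 0.53 and 0.64 for EIF2AK3, all still called.

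**Figure D4:**
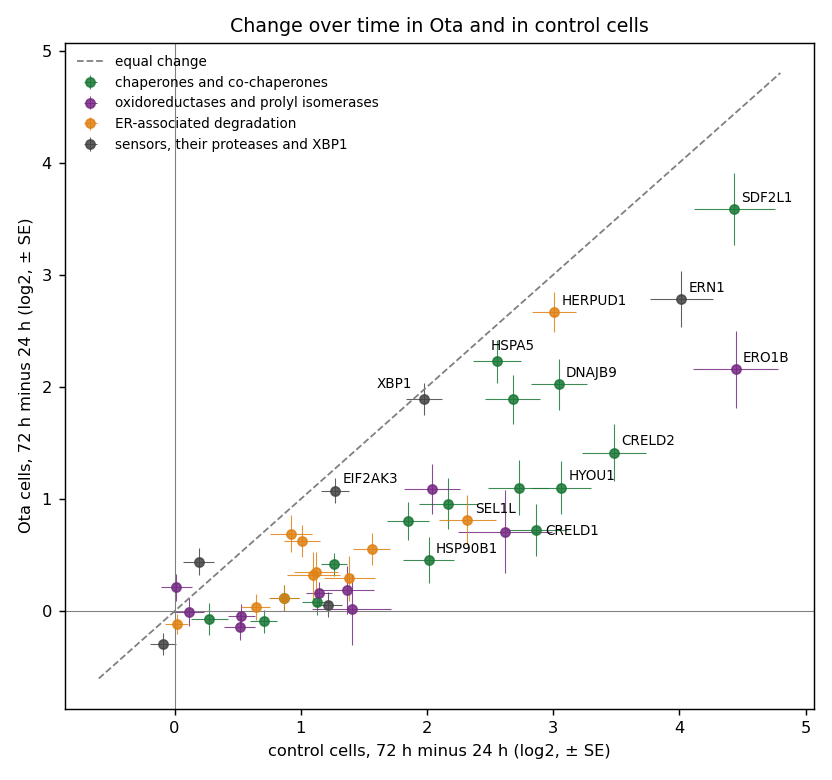
Log2 change over time, 72 h minus 24 h, in Ota cells (vertical axis) against that in control cells (horizontal axis) for the 43 tested members, with standard errors and coloured by class; the dashed line marks equal change. Every point with a change above 0.5 in control cells lies below the line, XBP1 and EIF2AK3 closest to it.

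Individual arrays within the 72 h groups were ordered alike over many members. Replicate 2 was the highest of the 3 Ota arrays at 72 h on 38 of 43 members and replicate 1 the lowest on 35. Among the control arrays at 72 h, replicate 3 was the highest on 37 members and replicate 2 the lowest on 31. The order of the arrays over all genes tested was not counted. The median SD within Ota cells at 72 h was 0.287 over the members and 0.120 over all genes tested, and within control cells at 72 h 0.181 and 0.123. At 24 h the medians were 0.104 over members and 0.139 over all genes in Ota cells, and 0.169 and 0.165 in control cells. Leaving out each array in turn gave between 28 and 33 members called lower at 72 h, the count of 28 coming without replicate 3 of control at 72 h. The part of this shared order in the differences between Ota and control was not tested.

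Members with a stress element in the promoter can be set beside the rest. All 10 members with ERSE or ERSE-II were tested and all 10 were called lower at 72 h (median -1.16, from -2.04 to -0.53). Of the 29 tested members whose promoter held neither, 20 were called lower (median -0.77, from -1.71 to 0.16). The share of all genes tested was 13.7%. Among the 10, HSPA5 kept its call in 13 and HERPUD1 in 7 of 22 settings, and HSPA5 gave 0.06 with its probe sets averaged. In control cells the median change over time was 2.78 for the 10 members with an element, from 0.71 to 4.44, and 1.15 for the 29 without, from -0.09 to 4.02. The ranges overlap widely: ERN1, at 4.02, holds no element in this window, and CALR, shown above with its ERSE, is the member at 0.71.

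Many members are read by more than 1 probe set, and these did not always go the same way at 24 h. At 72 h 63 of the 94 probe sets tested were lower and none higher, against 11.8% lower and 16.4% higher of all probe sets tested. At 24 h 8 of the 94 were lower and 21 higher, against 18.1% lower and 12.9% higher of all probe sets. Of the 51 probe sets that are not the brightest of their gene, 15 were higher and 2 lower at 24 h. Among the 27 members with several tested probe sets, DNAJC10, ERO1A and DERL2 had probe sets called in both directions at 24 h, and none had at 72 h.

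The widest gap was in HSPA5, where probe set 230031_at read 8.72, 8.72 and 8.63 in Ota cells at 24 h, against 5.62, 5.52 and 5.61 in control cells (3.11 ± 0.30 SE, limma adjusted p = 2.19e-05), while the brightest probe set, 211936_at, was not called. At 72 h 230031_at read 11.02, 12.65 and 11.92 in Ota cells and 11.10, 11.01 and 11.32 in control cells (0.72 ± 0.30 SE, adjusted p = 0.0979). With the mean of its probe sets in place of the brightest, HSPA5 was higher at 24 h (1.42, adjusted p = 0.000937) and gave 0.06 (adjusted p = 0.866) at 72 h. The same averaging gave higher calls at 24 h for PDIA3 (0.92, adjusted p = 0.00199), DNAJC10 (0.40, adjusted p = 0.0396) and DERL1 (0.34, adjusted p = 0.00685), and reduced ERO1A to -0.34 at 24 h (adjusted p = 0.0203) and -0.30 at 72 h (adjusted p = 0.0326).

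DNAJC10 was higher at 24 h on 229588_at (1.47 ± 0.19 SE, limma adjusted p = 0.000162) and 243635_at (1.11 ± 0.24 SE, adjusted p = 0.00508) and lower on 221781_s_at (-0.45 ± 0.13 SE, adjusted p = 0.0208). ERO1A was higher on 225750_at (0.51 ± 0.13 SE, adjusted p = 0.0119) and lower on 218498_s_at (-0.75 ± 0.17 SE, adjusted p = 0.00554) as well as on its brightest. DERL2 was higher on 226719_at (0.89 ± 0.17 SE, adjusted p = 0.00247). SEL1L on 202063_s_at (1.87 ± 0.46 SE, adjusted p = 0.00944) and PDIA3 on 229453_at (1.75 ± 0.19 SE, adjusted p = 4.82e-05) were also higher at 24 h, while their brightest probe sets were not called. ATF6 was higher at 24 h on all 4 of its tested probe sets, by 0.34 to 1.50. Which transcript forms or regions these probe sets read was not examined, and the reason for the disagreement was not tested.

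**Figure D5:**
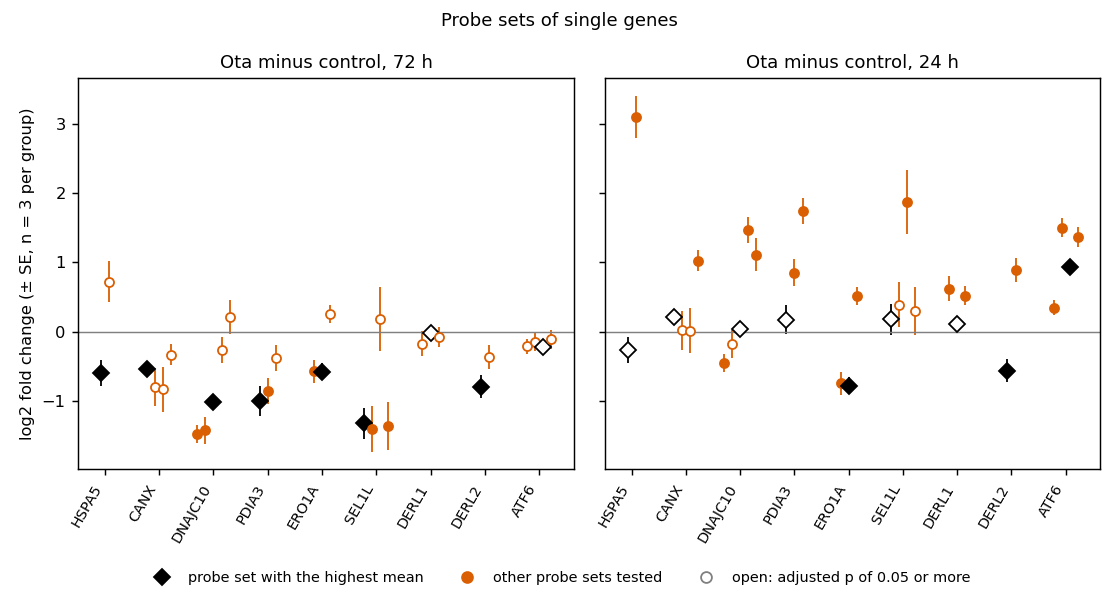
Log2 fold change, Ota minus control, with its standard error, of every tested probe set of 9 members at 72 h (left) and at 24 h (right); black diamonds are the probe set with the highest mean and circles the others, open where the adjusted p is 0.05 or more. At 24 h the circles of HSPA5, DNAJC10, PDIA3 and SEL1L reach far above their diamonds, and at 72 h all filled symbols lie below zero.

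Other genes of the same pathways, listed by function, moved in the same direction at 72 h in smaller shares. Among other folding enzymes and luminal proteins 11 of 31 tested genes (35.5%) were lower and 3 (9.68%) higher (median -0.24), beside 13.7% lower and 15.7% higher of all genes tested. KDELR3, a receptor that returns ER proteins from the Golgi, read 8.99, 9.14 and 8.86 in Ota cells at 72 h, against 11.50, 11.29 and 11.71 in control cells (-2.50 ± 0.13 SE, limma adjusted p = 9.17e-07). NUCB2, a calcium-binding protein of the secretory pathway, differed by -1.80 ± 0.13 (SE, adjusted p = 6.38e-06), and ERP44, which retains ERO1 and other clients in the early secretory pathway, by -1.09 ± 0.12 (SE, adjusted p = 0.000119). The 3 called higher at 72 h were FKBP11 (0.98 ± 0.21 SE, adjusted p = 0.00508), FKBP9 (0.52 ± 0.12 SE, adjusted p = 0.0068) and SDF2 (0.59 ± 0.14 SE, adjusted p = 0.00842). At 24 h 5 of 31 (16.1%) were lower and 3 (9.68%) higher, shares near or below the 20.9% and 8.94% of all genes tested, KDELR3 (-2.03 ± 0.13 SE, adjusted p = 1.57e-06) and the peroxidase GPX8 (-0.70 ± 0.14 SE, adjusted p = 0.00364) among the lower and FKBP11 (1.57 ± 0.21 SE, adjusted p = 0.000205), a prolyl isomerase, among the higher.

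Of 19 genes for attaching and trimming N-linked sugar chains 8 (42.1%) were lower and none higher at 72 h (median -0.35), beside 13.7% lower of all genes tested. The smallest p-values belonged to the oligosaccharyltransferase subunits MAGT1 (-0.81 ± 0.11 SE, limma adjusted p = 0.000288) and OSTC (-0.96 ± 0.15 SE, adjusted p = 0.000835) and to the mannosyltransferase ALG2 (-0.51 ± 0.11 SE, adjusted p = 0.00459). At 24 h 2 of 19 were lower, DPAGT1 (-1.04) and TUSC3 (-0.39), a share below the 20.9% of all genes tested, and STT3B was higher (0.42). Of 25 further genes of the degradation machinery 8 (32%) were lower and 1 (4%) higher at 72 h (median -0.16), beside 13.7% and 15.7% of all genes, the lower including the lectin ERLEC1 (-0.93 ± 0.12 SE, adjusted p = 0.000249), the ubiquitin-conjugating enzyme UBE2J1 (-0.97 ± 0.15 SE, adjusted p = 0.000729) and AUP1 (-0.51 ± 0.11 SE, adjusted p = 0.00665). At 24 h 2 (8%) were lower and 2 (8%) higher, below the 20.9% lower and 8.94% higher of all genes, SVIP (-1.02) and UBE2J1 (-0.45) being lower and the ligase MARCHF6 higher (0.59).

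Of 12 targets of the PERK arm 6 (50%) were lower and none higher at 72 h (median -0.50), beside 13.7% lower of all genes tested. ASNS, which makes asparagine, read 10.19, 11.07 and 10.67 in Ota cells at 72 h, against 11.84, 11.67 and 11.82 in control cells (-1.13 ± 0.21 SE, limma adjusted p = 0.00206). The transcription factor ATF4 differed by -0.65 ± 0.12 (SE, adjusted p = 0.00221) and the pseudokinase TRIB3 by -0.65 ± 0.17 (SE, adjusted p = 0.0131), TRIB3 being also the 1 gene of this list called at 24 h (-0.77 ± 0.17 SE, adjusted p = 0.00448). Over time 12 of 12 targets were higher at 72 h in Ota cells (median change 1.65) and 11 of 12 in control cells (median change 2.31), beside 20.4% and 21.5% of all genes tested.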

How the data were processed

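RNA of 12 HK-2 cultures was measured on 1-colour expression arrays, 3 per group. Per the submitters' processing notes, the deposited log2 values were made by the authors with GCRMA, whose version and settings are not given in the sources used here. The method corrects background, applies quantile normalization and summarises the probes of a set, so low values sit on a floor and a shift shared by all transcripts would be largely removed. Of 54675 probe sets, 62 controls were left out; names come from the platform annotation, updated with RefSeq (GRCh38.p14), which gave 1 symbol for 41091 probe sets (54 of them kept the platform's symbol), several for 1801 and none for 11721.

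Probe sets above 4 on at least 3 of 12 arrays (22477) were fitted together in limma 3.58.1 (R 4.3.3; means of the 4 groups, 8 residual degrees of freedom, eBayes) with Benjamini-Hochberg adjustment over all of them. Contrasts were Ota minus control at each time, their difference, and 72 h minus 24 h in Ota and in control cells. A gene is read on the probe set with the highest mean. The script was tested on simulated data with independent noise on each array, which held neither pairing of replicates nor a shared order of arrays. Genes named in full are the sensor class, the 5 members of each other class with the smallest p at 72 h and the 2 at 24 h, HSPA5, DNAJB9, HERPUD1 and members whose probe sets were called both ways; other pathway genes are up to 3 per list and time. All members and lists were chosen with earlier results of these data known.

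Deviations from the group means correlated between arrays of the same replicate number by 0.451, 0.347 and 0.480 for Ota and control at 24 h. They correlated by 0.286, 0.120 and 0.248 for control at 72 h and 24 h, and by 0.283, 0.295 and 0.294 for control at 72 h and Ota at 24 h. By the threshold of 0.1 in every pair, these numbers pair samples. Those of Ota at 72 h do not: 0.0999, -0.038 and 0.176 with control at 72 h, and 0.138, -0.0799 and 0.0479 with Ota at 24 h. With control at 24 h they were 0.117, 0.0586 and 0.136. The p-values reported come from a fit of group means that did not use the pairing. Alternatives covered the filter, normalization, the probe set of a gene, the variance model, the replicate block and leaving out each array. Protein sequences were not used here.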

Additional observations from a re-analysis of the deposited data

Results flagged for a closer look

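The response to Ota differed between 72 h and 24 h, by limma's test of the difference itself, for 25 members; each value is the log2 difference, Ota minus control, at 72 h minus that at 24 h. Among chaperones it was -2.14 for CRELD1, -2.07 for CRELD2, -1.96 for HYOU1, -1.62 for DNAJC3, -1.56 for HSP90B1 and -1.21 for DNAJB11. It was -1.045 for HSPA13, -1.043 for DNAJC10, -1.02 for DNAJB9, -0.84 for UGGT1, -0.80 for CALR and -0.75 for CANX. Among oxidoreductases and isomerases it was -2.29 for ERO1B, -1.91 for PDIA4, -1.17 for PDIA3, -0.99 for PDIA6, -0.66 for P4HB and -0.57 for FKBP2. Among ERAD genes it was -1.51 for SEL1L, -1.09 for DERL3, -1.01 for SELENOK, -0.75 for EDEM3 and -0.61 for OS9, and in the sensor class -1.24 for ERN1 and -1.16 for ATF6.

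For CRELD1, SELENOK, EDEM3, ATF6 and ERN1 the response at 24 h was itself called higher, whereas for FKBP2 it was called lower at both times and for the other 19 it was not called at 24 h. ERN1's call was lost without any of 7 single arrays: replicates 1 and 2 of Ota at 24 h (-1.27 and -1.10, adjusted p = 0.0589 and 0.0831), replicate 1 of Ota at 72 h (-0.93, 0.0556), replicates 2 and 3 of control at 24 h (-1.08 and -1.23, 0.0695 and 0.0613), and replicates 1 and 3 of control at 72 h (-1.24 and -1.14, 0.0696 and 0.0804). With the probe sets of ERN1 averaged the difference was -0.53 (adjusted p = 0.136). The calls of DERL3, DNAJB11, DNAJB9, FKBP2, OS9, P4HB, PDIA3 and PDIA4 were also lost in at least 1 setting, with an adjusted p of up to 0.152 (DNAJB9).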

How the results depend on the processing

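Of the calls of members, those held in every setting run were 27 of 33 at 72 h, 6 of 12 at 24 h, 16 of 25 for the difference of responses, 37 of 37 for control cells over time and 16 of 22 for Ota cells over time. Leaving out each array in turn gave 28 to 33 members lower at 72 h, 4 to 7 lower and 4 to 6 higher at 24 h, 16 to 28 lower for the difference (16 without replicate 1 of Ota at 72 h), 37 to 38 higher over time in control cells, and 18 to 22 higher and 0 to 1 lower over time in Ota cells. MBTPS1 was the 1 member called lower over time in Ota cells, against 0 as reported, with quantile normalization repeated, with arrays shifted to a common median of the probe sets tested (a setting chosen after seeing the data), with 1 probe set per gene in the fit, with probe sets of a gene averaged, with a trended robust variance, and with the replicate block. With the probe sets of each gene averaged, HSPA5 reversed to 1.42 (adjusted p = 0.000937) at 24 h and 0.062 (adjusted p = 0.866) at 72 h, and DERL2 to 0.16 (adjusted p = 0.456) at 24 h; ERN1 (0.27, adjusted p = 0.25) and XBP1 (-0.36, adjusted p = 0.111) lost their 24 h calls and UGGT1 (0.075, adjusted p = 0.619) its call over time in Ota cells. The cause was not tested. The replicate block gave 32 members lower at 72 h, 6 lower and 6 higher at 24 h and 26 lower for the difference, and HSPA5 and HERPUD1 at 72 h and DNAJB9 in the difference lost their calls. With no filter, more probe sets are adjusted for, and 28 members were lower at 72 h and 17 for the difference.

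The split of all genes called higher and lower moved with scaling: for the difference 1468 and 525 as reported, 1230 and 707 with quantile normalization repeated, 1062 and 840 with the common median of the probe sets tested; for Ota cells over time 2187 and 948, 1781 and 1266, and 1577 and 1663; for Ota against control at 72 h 1678 and 1469 as reported and 1366 and 1897 with that common median. That common median moved the median of all genes from 0.09 to -0.03 for the difference and from 0.08 to -0.04 for Ota cells over time. A common median of all probe sets moved the split the other way. It gave 1699 higher and 422 lower for the difference, 2518 and 747 for Ota cells over time, and 1794 and 1310 at 72 h. Under it the median of all genes was 0.14 for the difference and 0.13 for Ota cells over time. No array carries a depth, and levels near the floor (DERL3, CRELD1) or near the top of the scale (HSPA5) limit the size of change that can be read. Protein sequences were planned and not run.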
